A study of Homo sapiens with 12 samples.

Results

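The MYC, MAX and MXD network is a set of transcription factors that share the basic helix-loop-helix leucine zipper fold. Its members were taken here as the genes whose Ensembl identifier maps to 1 of 10 symbols, MYC, MYCN, MYCL, MAX, MXI1, MXD1, MXD3, MXD4, MLX and MNT, and all 10 had a row among the 63677 gene identifiers counted. The rule itself takes no measured value, and the set was picked with earlier results of these data known. The RNA came from LNCaP cells, an established androgen-responsive prostate cancer line. A TALEN, an engineered nuclease, had been aimed at the start codon of Bag-1L, the longest protein made from the BAG1 gene, a cochaperone, and the knockout line (Bag-1L KO) was set against a TALEN control line. Per the study's methods, transfected cells went through drug selection and single clones were isolated and screened for loss of Bag-1L, so in the KO line a property of the clone and loss of Bag-1L cannot be told apart. The 6 groups were control in full medium (control FM), KO in full medium (KO FM), control starved of hormone for 72 h and given ethanol, the vehicle, for 16 h (control EtOH), KO treated likewise (KO EtOH), control starved and given 10 nM dihydrotestosterone, an androgen, for 16 h (control DHT) and KO treated likewise (KO DHT). Each group had 2 biological replicates.

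MYC proteins bind DNA as heterodimers with MAX, mostly at the E-box CACGTG, and activate genes for ribosome biogenesis, metabolism and cell growth. MXD proteins, MXI1 (also called MXD2) and MNT compete for MAX and recruit the SIN3 corepressor to the same elements, and MLX is another hub that pairs with MNT, MXD1, MXD4 and the glucose-sensing factors MLXIP (MondoA) and MLXIPL (ChREBP). In prostate cancer MYC is a frequently amplified driver gene, and androgen signalling and MYC programs are studied together in LNCaP cells.

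The E-box also lies before some of the network's own genes. RefSeq promoter windows, 250 bases before to 50 after a transcription start, were held for 9 members in 12 windows and were placed on GRCh37 by exact match. MYC was not searched. CACGTG, which reads the same on both strands, was in 3 of the 12 windows (25%), those of MLX, MXD4 and MNT, against 7.26% of 35114 windows of 300 bases. The related letters CACGCG, searched on both strands, were in 2 windows, 1 of the 3 of MXI1 and that of MXD3, both at base 8 after the start, against 11.4% of all windows. The windows of MYCN, MYCL, MAX and MXD1 held neither. These are matches of letters, not measured binding. The stretches that carry the E-box are shown up to the first annotated base of each gene, 5′ to 3′ on the strand of the gene, with CACGTG in capitals. The match began 50 bases before the RefSeq start of MLX (chr17:40718868-40719089, plus strand), 238 bases before that of MXD4 (chr4:2263837-2264086, minus strand) and 193 bases before that of MNT (chr17:2304399-2304604, minus strand).
MLX: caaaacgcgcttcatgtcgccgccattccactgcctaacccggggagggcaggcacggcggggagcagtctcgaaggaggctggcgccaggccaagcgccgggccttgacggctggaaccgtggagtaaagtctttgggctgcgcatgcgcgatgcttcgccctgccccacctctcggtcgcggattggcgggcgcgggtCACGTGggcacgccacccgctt
MXD4: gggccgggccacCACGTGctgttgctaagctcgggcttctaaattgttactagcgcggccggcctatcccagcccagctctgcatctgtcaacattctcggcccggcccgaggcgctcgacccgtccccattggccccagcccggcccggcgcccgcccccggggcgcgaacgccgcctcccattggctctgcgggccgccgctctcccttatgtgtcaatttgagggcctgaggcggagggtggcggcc
MNT: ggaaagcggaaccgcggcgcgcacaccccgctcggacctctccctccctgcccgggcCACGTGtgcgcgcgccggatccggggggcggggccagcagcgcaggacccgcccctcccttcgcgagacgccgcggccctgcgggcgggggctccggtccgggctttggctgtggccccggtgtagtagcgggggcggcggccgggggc

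Gene counts totalled between 20826843 and 30354666 per library. Levels below are normalized counts, that is counts divided by the size factor of the library, and a change passed when the Benjamini-Hochberg adjusted p of DESeq2 over all genes tested was at most 0.05 and the fold change at least 1.5. Of the replicate pairs, that of control EtOH agreed least. Over 11374 genes the absolute log2 difference between its libraries had a median of 0.238, against 0.0765 to 0.172 in the other 5 groups. Results of the members that rest on either control EtOH library are therefore given with and without it where the call or direction changes. For genes outside the members only the fit of all samples is given, so their calls were not checked in this way. Normalized counts of BAG1, which counts all its protein forms together, were between 1701.5 and 2702.6 in the 6 control libraries and between 1075.5 and 1576.1 in the 6 KO libraries. Luminal prostate markers were present in every library, for example KLK3 at 226.5 to 941.1 and HOXB13 at 154.4 to 335.0 CPM (counts scaled to a common library total). The basal, leukocyte and neuroendocrine markers KRT5, TP63, PTPRC and CHGA had at most 5 counts in any library, as had the fibroblast collagen COL1A2, while COL1A1 was at 15.2 to 38.5 CPM.

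Of the 10 members, 9 passed the minimum of 10 counts summed over the libraries. MYCN (chr2:16080672-16087129), the paralog best known from neuroblastoma and neuroendocrine prostate cancer, had 1 count in control EtOH replicate 1, 1 count in KO DHT replicate 2 and 0 in the other 10 libraries. That is below 3 counts in every library, a floor of 0.0988 to 0.144 CPM, so no comparison of MYCN was possible at this depth. The other 9 had counts in all 12 libraries, as the plot of normalized counts by gene shows.

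**Figure D1:**
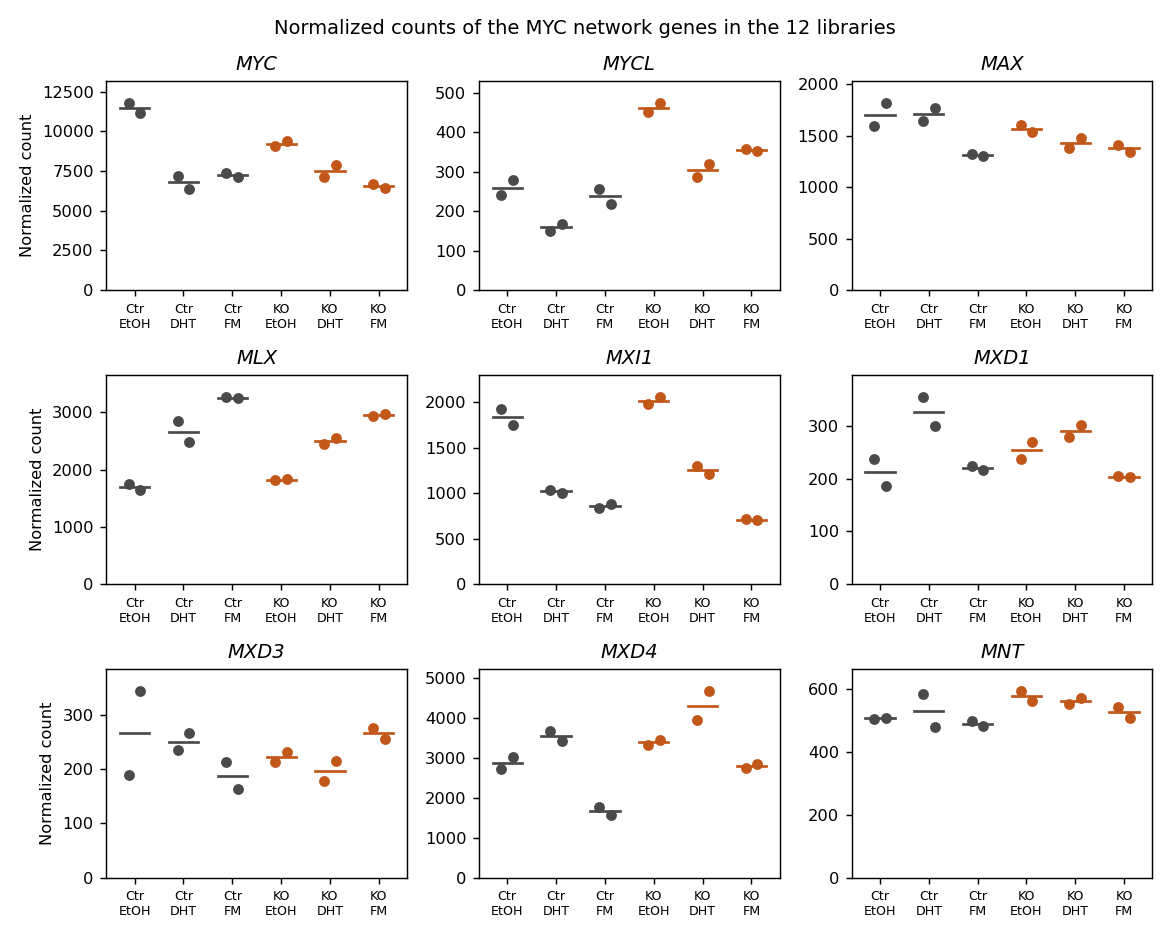
Normalized count (vertical axes, each from 0) of the 9 network genes with counts in all 12 libraries, by line and culture condition (Ctr, TALEN control, grey; KO, Bag-1L KO, orange). Points are libraries and bars are means of 2. MYC was highest in control EtOH (11756.2 and 11133.8), MXI1 was lowest in FM in both lines, MLX ran the other way, and MXD3 was spread most in control EtOH (189.4 and 343.2).

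MYC (ENSG00000136997, chr8:128747680-128755197, plus strand) was most abundant in starved cells. Its normalized count in control was 11756.2 and 11133.8 with EtOH, 7196.2 and 6394.2 with DHT, and 7400.2 and 7096.7 in FM. The starved control libraries stood above all others, and those of DHT and FM overlapped. In KO the normalized count of MYC was 9044.9 and 9420.3 with EtOH, 7113.5 and 7895.5 with DHT, and 6695.0 and 6442.4 in FM. Starved KO libraries came next in order, above the remaining 8 and below the starved controls. The order of the group means was control EtOH (11445.0 ± 440.1, SD, n = 2), KO EtOH (9232.6 ± 265.4), KO DHT (7504.5 ± 553.0), control FM (7248.4 ± 214.6), control DHT (6795.2 ± 567.1) and KO FM (6568.7 ± 178.6), and each neighbouring pair among the last 4 overlapped.

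With DHT, MYC fell by 0.75 on the log2 scale in control (SE 0.10, fold 0.594, adjusted p = 6e-12, DESeq2). The libraries are of whole cultures, in which a smaller share of expressing cells and less RNA per cell cannot be told apart. Leaving out a library kept the change between -0.84 and -0.67. In KO the log2 change with DHT was -0.30 (SE 0.10, 95% interval -0.50 to -0.10, adjusted p = 0.0279), which did not reach the fold minimum and with a library left out it lay between -0.38 and -0.22, with an adjusted p of 0.0372 to 0.327. Every DHT library was nevertheless below every EtOH library of its own line. The difference between the lines in the DHT response was 0.45 on the log2 scale (SE 0.14, 95% interval 0.17 to 0.73). It did not pass, with an adjusted p of 0.199 over 13478 genes in DESeq2's fit. Of the control EtOH libraries, leaving out replicate 1 gave 0.41 (adjusted p = 0.227) and leaving out replicate 2 gave 0.49 (adjusted p = 0.0339), which still missed the fold minimum. Over all libraries left out in turn the difference lay between 0.37 and 0.54.

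In full medium MYC was again below the starved level. It fell by 0.66 in control (SE 0.10, fold 0.633, adjusted p = 1.63e-09, DESeq2), and in KO the log2 change was -0.49 (SE 0.10, fold 0.711, adjusted p = 1.27e-05), short of the fold minimum. The difference between the lines in the FM response was 0.17 (95% interval -0.11 to 0.45, adjusted p = 0.579). These comparisons share the EtOH libraries with the DHT comparisons.

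MYCL (ENSG00000116990, chr1:40361100-40367928, minus strand), the L-MYC paralog first found in lung cancer, was scarcer, at group means of 32.0 to 92.8 normalized counts per kb of exon against 1075.2 to 1873.5 for MYC. Its normalized count in control was 240.8 and 278.5 with EtOH, 150.4 and 167.4 with DHT, and 255.1 and 218.9 in FM. In KO it was 449.9 and 472.4 with EtOH, 287.2 and 319.7 with DHT, and 357.2 and 351.8 in FM. Every KO library stood above every control library, including across culture conditions, since the highest control value was 278.5 and the lowest KO value 287.2. MYCL fell with DHT in control (log2 fold change -0.71, SE 0.17, adjusted p = 0.000548, DESeq2) and in KO (-0.61, SE 0.16, adjusted p = 0.00193), and the difference between these responses was 0.10 (95% interval -0.36 to 0.56, adjusted p = 1). The KO call was lost without KO EtOH replicate 2 (-0.57, adjusted p = 0.101) and without KO DHT replicate 1 (-0.53, adjusted p = 0.0927), and the control call was lost when only the 4 samples compared were fitted (-0.69, adjusted p = 0.089). The log2 change of MYCL in FM against EtOH was -0.13 in control (adjusted p = 0.593) and -0.38 in KO (adjusted p = 0.0516), so the starved and FM levels did not pass in either line.

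MAX (ENSG00000125952, chr14:65472892-65569413, minus strand), the obligate partner, ranged from 1296.6 to 1811.4 normalized counts. Its normalized count was 1592.0 and 1811.4 in control EtOH, 1643.6 and 1771.3 in control DHT, 1320.8 and 1296.6 in control FM, 1600.6 and 1534.9 in KO EtOH, 1375.6 and 1475.1 in KO DHT, and 1409.3 and 1342.6 in KO FM. Control FM lay below control EtOH and control DHT, and below every other group. KO DHT lay below KO EtOH and below both of those control groups, and it overlapped KO FM. The log2 change with DHT was 0.01 in control (95% interval -0.21 to 0.22, adjusted p = 0.984, DESeq2) and -0.14 in KO (-0.36 to 0.08), and the sign in control was negative, at -0.01, with TMM scaling. No comparison of MAX passed. The largest change was FM against EtOH in control, at -0.38 (SE 0.11, adjusted p = 0.00321), below the fold minimum. Exons of MAX share 13.1% of their bases with FNTB on the opposite strand, and the strand setting of the counting was not given in the sources used here.

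MLX (ENSG00000108788, chr17:40719090-40725257, plus strand), the other hub, moved opposite to MYC. Its normalized count in control was 1749.1 and 1646.3 with EtOH, 2848.0 and 2476.4 with DHT, and 3264.4 and 3242.9 in FM. In KO it was 1821.0 and 1826.7 with EtOH, 2445.4 and 2558.8 with DHT, and 2935.2 and 2971.3 in FM. In both lines the conditions did not overlap and ran in the same order, from EtOH through DHT to FM. MLX rose with DHT in control (log2 fold change 0.65, SE 0.10, fold 1.57, adjusted p = 1.32e-08, DESeq2). In KO the change was 0.46 (SE 0.10, fold 1.37, adjusted p = 0.000225), below the fold minimum, and the responses differed by -0.19 (95% interval -0.48 to 0.10, adjusted p = 1). Without control DHT replicate 1 the control value was 0.55 and also missed the fold minimum. In FM against EtOH, MLX rose by 0.94 in control (adjusted p = 7.79e-18) and by 0.70 in KO (adjusted p = 4.06e-10). Its promoter carries the E-box closest to the start among those printed above, and 18.2% of its exon bases are shared with PSMC3IP on the opposite strand.

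MXI1 (ENSG00000119950, chr10:111967363-112047123, plus strand), a MAX-binding antagonist of MYC, showed the largest responses to DHT and to FM among the members tested and moved in the same direction as MYC. Its normalized count in control was 1928.9 and 1755.7 with EtOH, 1038.9 and 1005.7 with DHT, and 838.2 and 879.3 in FM. In KO it was 1979.2 and 2056.3 with EtOH, 1299.7 and 1207.2 with DHT, and 710.7 and 700.4 in FM. The 3 conditions did not overlap in either line. With DHT, MXI1 fell by 0.85 in control (SE 0.11, fold 0.555, adjusted p = 2.27e-13, DESeq2) and by 0.69 in KO (SE 0.11, fold 0.621, adjusted p = 6.09e-09), a difference of 0.16 between the lines (95% interval -0.14 to 0.46). In FM against EtOH it fell by 1.10 in control (adjusted p = 6.59e-22) and by 1.52 in KO (adjusted p = 1.11e-40). The FM response differed by -0.42 (SE 0.16, 95% interval -0.72 to -0.11, adjusted p = 0.155), which did not pass.

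MXD4 (ENSG00000123933, chr4:2249159-2263836, minus strand), an antagonist associated with differentiation, was the most abundant of the repressor genes per kb of exon in every group. Its normalized count in control was 2725.4 and 3013.0 with EtOH, 3687.0 and 3433.7 with DHT, and 1780.2 and 1581.6 in FM. In KO it was 3336.7 and 3448.1 with EtOH, 3946.8 and 4678.3 with DHT, and 2737.5 and 2854.0 in FM. DHT libraries were the highest and FM libraries the lowest of each line. The DHT changes were 0.31 in control (SE 0.12, adjusted p = 0.044, DESeq2) and 0.35 in KO (SE 0.12, adjusted p = 0.0283), both below the fold minimum and 0.03 apart (95% interval -0.29 to 0.36). Against EtOH, MXD4 fell in FM by 0.77 in control (SE 0.12, adjusted p = 1.97e-09), while the value in KO was -0.28 (adjusted p = 0.0562). The difference of 0.49 (95% interval 0.16 to 0.82, adjusted p = 0.108) did not pass.

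The other repressor genes were scarcer, with group means of 32.2 to 66.3 normalized counts per kb of exon. MXD1 (ENSG00000059728, chr2:70124820-70170077), the founding MAD gene, had normalized counts of 237.9 and 187.0 in control EtOH, 355.4 and 300.6 in control DHT, 225.3 and 216.9 in control FM, 238.5 and 270.1 in KO EtOH, 280.0 and 301.8 in KO DHT, and 205.2 and 203.9 in KO FM. Both control DHT libraries stood above the starved controls, and MXD1 rose there by 0.63 (SE 0.18, fold 1.54, adjusted p = 0.00407, DESeq2), against 0.19 in KO (95% interval -0.16 to 0.54, adjusted p = 0.622). The control call was lost without control EtOH replicate 2 (0.46, adjusted p = 0.077) and without control DHT replicate 1 (0.50, adjusted p = 0.13), and in the fit of the samples compared alone (0.64, adjusted p = 0.115). The difference between the lines was -0.43 (95% interval -0.93 to 0.06, adjusted p = 1).

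MXD3 (ENSG00000213347, chr5:176728462-176739758), an S-phase-associated member, had normalized counts of 189.4 and 343.2 in control EtOH, 234.2 and 266.3 in control DHT, 212.0 and 162.4 in control FM, 213.6 and 230.6 in KO EtOH, 177.5 and 215.1 in KO DHT, and 275.1 and 255.4 in KO FM. The pair of control EtOH spans nearly the whole range of the gene, and no comparison of MXD3 passed. Without control EtOH replicate 1 it passed in control FM against EtOH (-0.88, adjusted p = 0.000417, DESeq2), in KO against control with EtOH (-0.63, adjusted p = 0.0252) and in the difference in FM response (1.13, adjusted p = 0.00134). With all libraries those values were -0.51, -0.26 and 0.77, and without control EtOH replicate 2 the second was 0.23. Its exons share 19.5% of their bases with RAB24 on the same strand and 24.2% with PRELID1 on the opposite strand, and HTSeq leaves out reads that overlap more than 1 gene, so its count is uncertain.

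MNT (ENSG00000070444, chr17:2287367-2304398), the broadly expressed antagonist, had normalized counts between 477.1 and 592.3 over the 12 libraries. They were 503.4 and 508.3 in control EtOH, 583.5 and 477.1 in control DHT, 498.1 and 480.5 in control FM, 592.3 and 561.8 in KO EtOH, 551.8 and 570.7 in KO DHT, and 542.8 and 507.5 in KO FM. The log2 change with DHT was 0.07 in control (95% interval -0.20 to 0.34, DESeq2) and -0.04 in KO (-0.31 to 0.23), and no comparison of MNT passed.

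**Figure D2:**
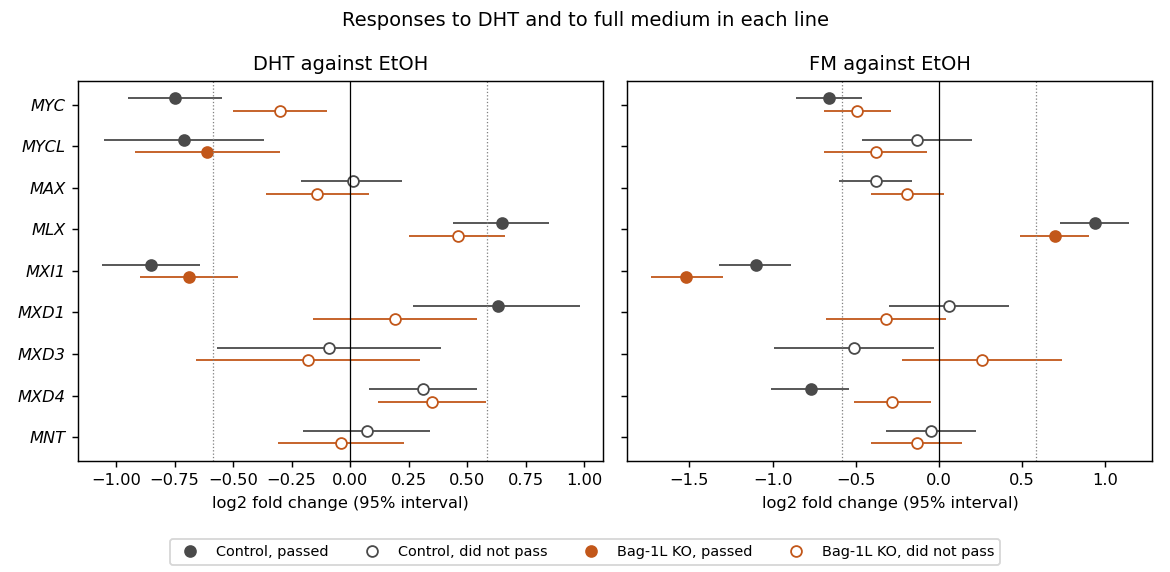
log2 fold change of each gene against EtOH (horizontal axes) with DHT (left) and in FM (right), in control (grey) and KO (orange). Bars are 95% intervals of the DESeq2 fit, filled points passed the adjusted p and the fold minimum of 1.5 (dotted lines), and open points did not. With DHT, MYC stood at -0.75 in control and -0.30 in KO, and MXI1 in FM reached -1.52 in KO.

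Counted together, 5 of the 9 members tested passed with DHT in control, MYC, MYCL and MXI1 lower and MXD1 and MLX higher, where 11.4% of 17535 genes tested passed. In KO 2 of 9 passed, MYCL and MXI1 lower, against 7.68% of genes. The difference in DHT response passed in 0 of 9 members, against 0.408% of genes. By DESeq2's unadjusted p, 1 member, MYC, was under 0.05 there, and edgeR also called 0. In FM against EtOH 4 of 9 passed in control, MYC, MXI1 and MXD4 lower and MLX higher, against 21.3% of genes, and 2 of 9 in KO, MXI1 lower and MLX higher, against 19.3%. For the difference in FM response the count was 0 of 9, against 1.39% of genes, with 3 members under an unadjusted p of 0.05 (MXD4, MXI1 and MXD3) and 0 called by edgeR. The median log2 change of the 9 members was 0.01 with DHT in control and -0.38 in FM in control, where the medians of all genes tested were -0.02 and -0.01.

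How the network is made up was described by dividing each normalized count by the merged exon length of the gene and summing over the 9 members. MYC held 53.9% ± 1.57 of that summed level in control EtOH (SD, n = 2), 38.3% ± 0.852 in control DHT and 43.5% ± 0.142 in control FM. In KO its share was 46.2% ± 0.418 with EtOH, 39.7% ± 0.375 with DHT and 39.3% ± 0.684 in FM. Starved control libraries, at 55.0% and 52.8%, stood above all the others. MLX went from 11.5% ± 0.385 in control EtOH to 21.6% ± 0.809 in control DHT and 28.0% ± 0.607 in control FM. By group means it was second to MYC in control DHT and in FM in both lines. MXD4 was second in both EtOH groups and in KO DHT. MXD4 held between 8.96% (control FM) and 20.2% (KO DHT) as group means, and MXI1 between 4.37% (KO FM) and 10.4% (KO EtOH). MYC per kb of exon stood at 2.14 ± 0.147 times the summed MXD and MNT genes, MXI1 included, in control EtOH and at 1.30 ± 0.0478 times in control DHT. That ratio was 2.28 ± 0.0432 in control FM, 1.53 ± 0.00644 in KO EtOH, 1.24 ± 0.000888 in KO DHT and 1.59 ± 0.0546 in KO FM. It was lower in KO than in control in every library with EtOH, with DHT and in FM, and DHT libraries were the lowest of each line. These shares are of mRNA, were given no test and say nothing of protein.

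**Figure D3:**
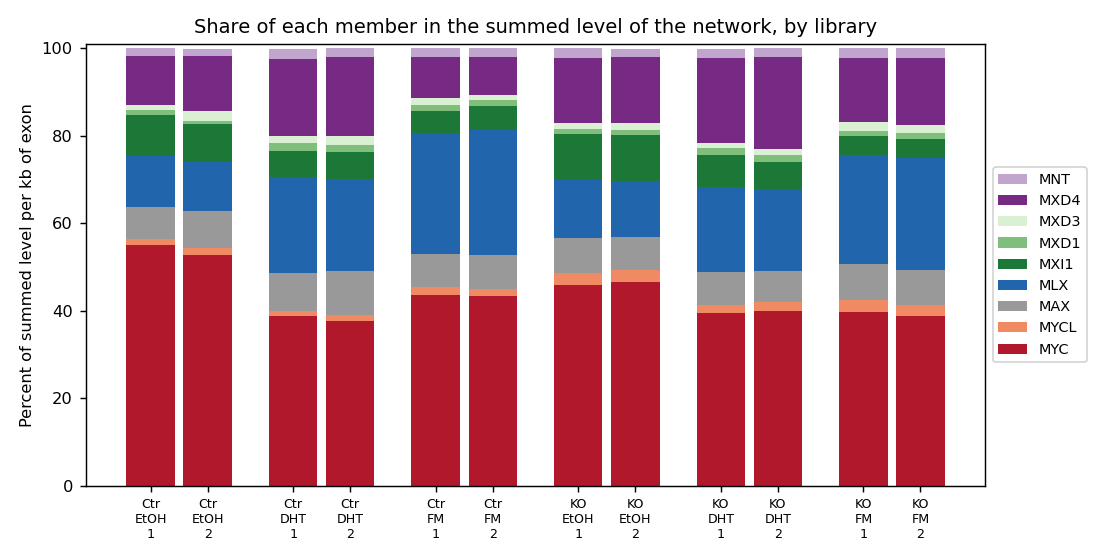
Share of each member (percent, vertical axis from 0) in the summed level per kb of merged exon of the 9 members with counts in all libraries, 1 bar per library. MYC (bottom, dark red) held 55.0% and 52.8% in the control EtOH libraries and between 37.7% and 46.5% elsewhere, while MLX (blue) widened from EtOH to DHT to FM in both lines.

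Between the lines, 1 of 9 members passed with EtOH, where 5.11% of 16521 genes passed, 1 of 9 with DHT, against 7.98% of 16014 genes, and 1 of 9 in FM, against 8.01% of 15000 genes. MYCL was higher in KO with EtOH (log2 fold change 0.83, SE 0.16, fold 1.78, adjusted p = 1.39e-05, DESeq2) and with DHT (0.93, SE 0.17, fold 1.91, adjusted p = 2.38e-06). In FM its value was 0.58 (SE 0.17, adjusted p = 0.00527), just under the fold minimum, and it passed there with edgeR (0.60) and without control FM replicate 1 (0.69). MXD4 was higher in KO in FM (0.73, SE 0.12, adjusted p = 7.9e-08), and its values with EtOH and DHT were 0.24 and 0.28. MYC was at -0.31 with EtOH (95% interval -0.51 to -0.11, adjusted p = 0.028), 0.14 with DHT (-0.06 to 0.34) and -0.14 in FM (-0.34 to 0.06), all short of the fold minimum. With DHT, MXI1 was at 0.29 (adjusted p = 0.0446), also short of it. Each of these comparisons sets a cloned KO line against the control line.

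MYC lies on the long arm of chromosome 8, whose genes as a group stood higher in KO. Over the long arm the median log2 difference between KO and control was 0.25 with EtOH (367 genes tested), 0.26 with DHT (357) and 0.22 in FM (332), and over the short arm it was 0.28, 0.31 and 0.33, where all genes tested had medians of -0.01, -0.02 and -0.01. MYC lay below the long-arm median in all 3 conditions, and its 95% interval held that median with DHT and not with EtOH or in FM. Of the long-arm genes, 9.81% lay below MYC with EtOH, 39.5% with DHT and 14.8% in FM. Genes that start within 2 Mb of MYC had medians of 0.30 with EtOH (8 tested), 0.19 with DHT (7) and 0.03 in FM (6). Of those averaging 100 or more normalized counts, PVT1 (-0.32, -0.01 and -0.04) and LRATD2 (-0.20, -0.12 and -0.07) also lay below the long-arm median. PCAT1 stood above it, at 0.62, 1.05 and 1.32. Computing the size factors without chromosome 8 left MYC with EtOH at -0.30. The part of a copy number difference between the lines in these values was not tested. Among genes that start within 2 Mb of MYC, 3 of 8 tested were lower with DHT in control (median -0.40), where 5.37% of all genes tested were lower, and 1 of 8 in KO (median -0.58), against 3.24%. They were PCAT1, a prostate long noncoding RNA (-1.22 in control and -0.79 in KO), and, in control, POU5F1B (-1.06, mean normalized count 50.9) and CASC8 (-2.34, mean normalized count 14.7), all named after their values were seen. PVT1 and LRATD2, also named after their values were seen, did not pass with DHT in either line. PVT1 (mean normalized count 1070.1) was at -0.45 in control and -0.14 in KO. LRATD2 (2364.0) was at 0.08 and 0.15.

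**Figure D4:**
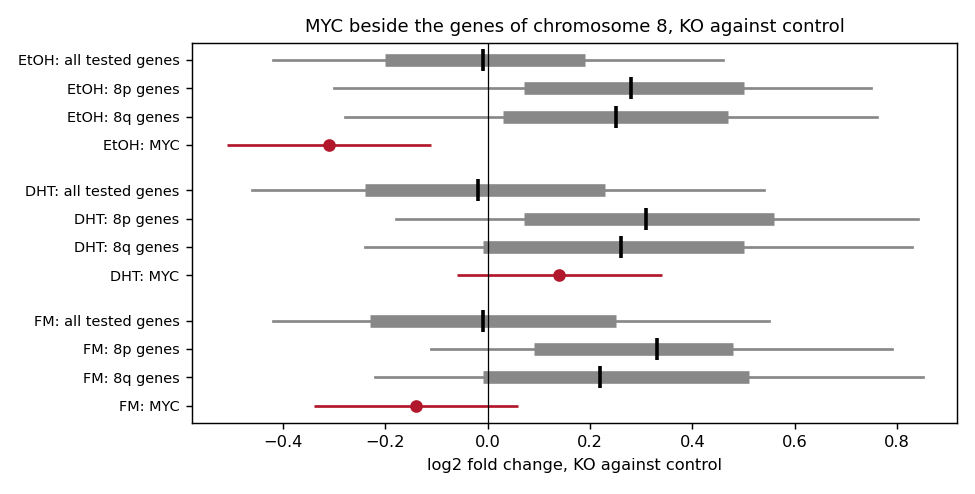
log2 difference between KO and control (horizontal axis) for all genes tested and for the short (8p) and long (8q) arms of chromosome 8, beside MYC (red, with its 95% interval), with EtOH, with DHT and in FM. Grey boxes span the 25th to 75th percentile, thin lines the 10th to 90th, and black ticks are medians. The medians of both arms lay between 0.22 and 0.33 and those of all genes near 0, while MYC stood at -0.31, 0.14 and -0.14.

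The profile of MYC over the 12 libraries was closest to those of TNFAIP2 (Pearson r = 0.97), a TNF-induced gene, RIN2 (0.97), a RAB5 exchange factor, IL17RD (0.95), a brake on FGF signalling, SAMHD1 (0.95), a dNTP hydrolase, and DTX4 (0.95), a ubiquitin ligase of the Notch pathway, among 11365 genes ranked. The points share their libraries and groups, and the r values only describe how these genes were picked, which also fixes much of how they move beside MYC. With DHT in control the log2 fold changes of the 5 were -1.46 (TNFAIP2), -1.64 (RIN2), -1.41 (IL17RD), -0.56 (SAMHD1) and -1.09 (DTX4), and in KO they were -0.90, -0.77, -0.70, -0.34 and -0.58.

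Partners outside the 10 genes were described from lists of network genes. Their counts stand against 11.4% of all genes tested that passed with DHT in control, 7.68% with DHT in KO, and 21.3% and 19.3% in FM. Of MGA, MLXIP and MLXIPL, other factors of the same fold, 1 of 3 passed with DHT in control, MLXIPL (ChREBP) at -0.82 (adjusted p = 3.54e-05, DESeq2), and 0 of 3 in KO. MLXIPL also fell in FM, by 1.55 in control and by 1.02 in KO, so it moved opposite to its partner MLX. Of 14 coactivators that MYC recruits, 0 passed with DHT in either line. TRRAP, the scaffold of the acetyltransferase complexes, was the only one that passed in FM (0.60 in control, adjusted p = 0.021, DESeq2). Its control EtOH libraries stood apart, at 2072.6 and 1223.5 normalized counts, against 2472.6 and 2522.2 in control FM. Of 18 genes of the SIN3 and NCOR corepressors, through which MXD proteins act, 1 passed with DHT in each line. SAP30, a SIN3 complex subunit, rose by 0.71 in control and by 0.82 in KO. Between the lines 1 of 18 genes was lower in KO in each condition, SAP30 with EtOH (-0.74) and DHT (-0.64) and NCOR1 in FM (-0.93). Over all genes tested 2.31%, 3.32% and 2.6% were lower in KO with EtOH, with DHT and in FM. In FM against EtOH 2 of 18 rose in each line. NCOR1 rose by 1.31 in control and by 0.81 in KO, and SAP30 rose in both lines, by 1.65 in KO. The control EtOH libraries of NCOR1 stood apart, at 5149.2 and 2982.2 normalized counts, against 10103.6 and 10044.9 in control FM. Of 13 genes for the turnover of MYC protein, 0 passed with DHT, and 5 in control and 4 in KO rose in FM, among them CIP2A (1.44 and 1.48), which protects MYC from dephosphorylation, and AURKA (1.02 and 1.39), a mitotic kinase that also stabilizes N-MYC. The ubiquitin ligase subunit SKP2 (0.95 and 1.15) and the deubiquitinase USP37 (1.04 and 0.63) rose in both lines, and USP28, another deubiquitinase of MYC, in control (0.72). For USP28 too the control EtOH libraries stood apart, at 1029.6 and 571.0 normalized counts, against 1297.6 and 1331.6 in control FM. So did those of USP37, at 385.4 and 223.8, against 610.7 and 646.8 in control FM. Of the MLX and MondoA targets TXNIP and ARRDC4, ARRDC4 was at -0.06 with DHT in control (adjusted p = 0.855), and TXNIP is not reported, since the identifier the annotation gives it was counted at 0.

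With DHT in control, where MYC mRNA fell, the known targets that passed were higher. Over all genes tested 6.04% were higher with DHT in control and 4.43% in KO. Of the nucleolar and ribosome biogenesis targets 2 of 26 rose and 0 fell, RRS1 by 0.63 and GRWD1 by 0.59, and in KO 0 of 26 passed, near or below those shares. The control EtOH libraries of RRS1 stood apart, at 610.0 and 896.2 normalized counts, against 1022.7 and 1309.3 in control DHT. The list medians were 0.24 and 0.20, against -0.02 and -0.01 for all genes tested. Of 22 metabolic and growth targets tested, 4 rose in control and 3 in KO and 0 fell. ODC1, the rate-limiting enzyme of polyamine synthesis, rose by 3.32 in control (SE 0.14, adjusted p = 6.99e-119, DESeq2) and by 2.77 in KO, and NAMPT, the NAD salvage enzyme, rose by 0.70 in control. SRM, spermidine synthase, rose there by 0.62 and EIF4A1, a translation factor counted low here (mean normalized count 68.7), by 0.89. HK2, a hexokinase, rose by 0.79 and CDC25A, a cell cycle phosphatase, by 0.60 in KO. The list medians were 0.08 and 0.11. Of 7 genes that MYC is known to repress, 3 rose with DHT in control, NDRG1 by 3.94, the CDK inhibitor gene CDKN1A by 0.83 and CDKN2B by 1.72 (mean normalized count below 100, named after its value was seen), and 1 rose in KO, NDRG1 by 3.55. ODC1 and NDRG1 are also known as androgen-responsive genes.

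In FM, where MYC mRNA was also below its starved level, the nucleolar and metabolic targets that passed were again higher. Of the 26 nucleolar genes, 7 rose in control and 9 in KO and 0 fell, with medians of 0.43 and 0.52 against -0.01 in both for all genes, and 9.81% and 9.61% of all genes tested were higher. UTP20, a ribosomal RNA processing factor, rose by 1.06 in control, and PA2G4, a growth regulator bound to ribosomes, rose by 0.79 in KO. Of the metabolic and growth targets, 7 and 8 of 22 rose, led by CDC25A (1.69 and 1.93) and, in KO, by LDHA, lactate dehydrogenase, as well. Of the 7 repressed targets 2 rose in each line, NDRG1 by 2.56 and 2.89 and CDKN2C by 0.90 and 1.10. Proliferation genes moved beside them, 19 of 20 higher in control and 20 of 20 in KO, with medians of 1.03 and 1.40, among them RRM2, a ribonucleotide reductase subunit (1.80 and 2.21). With DHT those 20 genes had medians of -0.14 and 0.02, and 1 passed, MCM3 at -0.60 in control. The part of growth rate in the target changes was not tested.

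**Figure D5:**
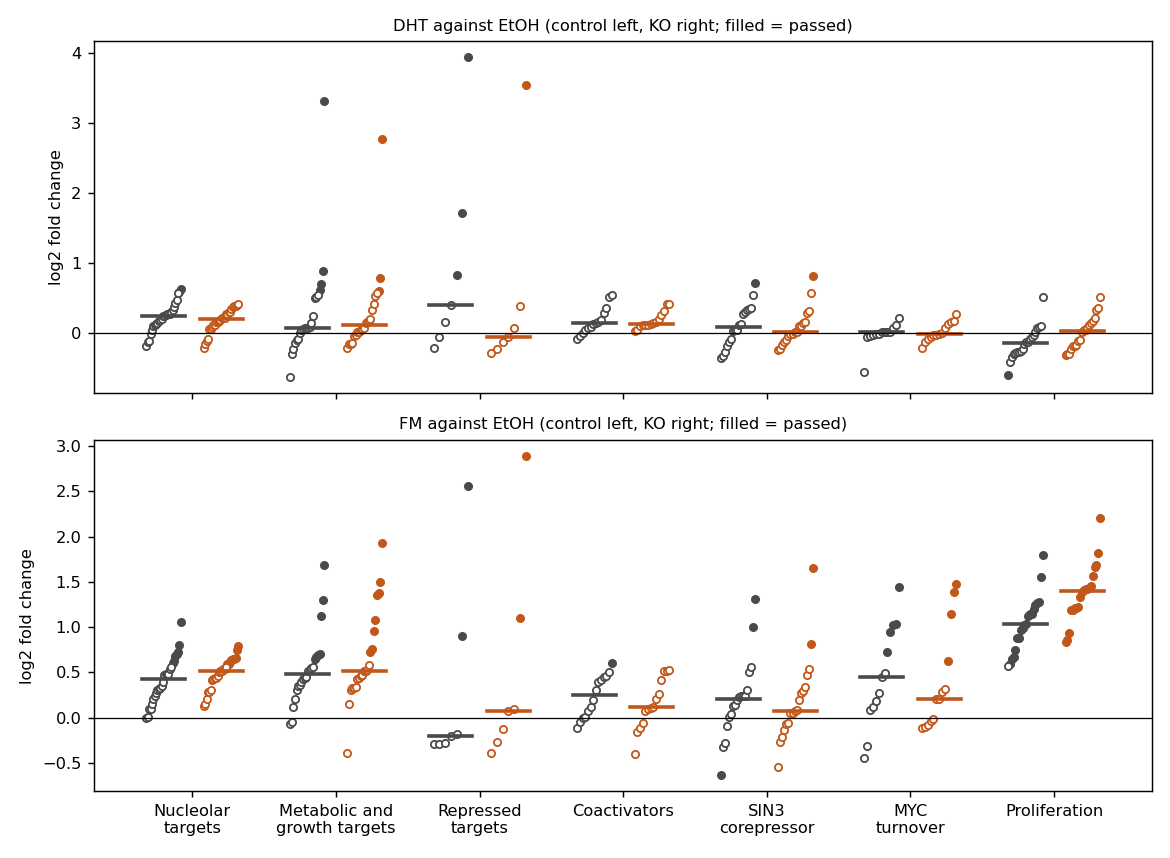
log2 fold change (vertical axes) of the genes tested in 7 lists of the wider network, with DHT against EtOH (top) and in FM against EtOH (bottom), in control (grey, left of each pair) and KO (orange, right). Points are genes, filled where they passed, and bars are list medians. Proliferation genes had medians of -0.14 and 0.02 with DHT and 1.03 and 1.40 in FM, and ODC1 and NDRG1 stood above the other genes of their lists with DHT.

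Between the lines the targets that passed were lower in KO. Over all genes tested 2.31% were lower with EtOH, 3.32% with DHT and 2.6% in FM. The nucleolar list had median log2 differences of KO from control of -0.25 with EtOH, -0.31 with DHT and -0.19 in FM, and 0, 0 and 1 of 26 genes were lower, UTP20 in FM at -0.75 (adjusted p = 3.32e-06, DESeq2). The metabolic and growth list had 3, 2 and 1 of 22 genes lower and 0 higher. SLC1A5, a glutamine transporter, was at -1.15 with EtOH and -1.13 with DHT, HK2 at -0.69 with EtOH and -0.66 in FM, and ODC1 at -0.95 with DHT. Of the 7 repressed targets 1 was lower in KO with EtOH, 3 with DHT and 0 in FM. NDRG1 was at -0.63 with EtOH and -1.02 with DHT, GADD45A, a stress-induced growth arrest gene, at -0.96 with DHT (adjusted p = 3.1e-05), and CDKN2B, at a mean normalized count of 31.5 and named after its value was seen, at -1.10 with DHT. Proliferation genes were lower in 7 of 20 cases with EtOH and 4 of 20 with DHT, and in 0 of 20 in FM. TOP2A (-0.73 with EtOH), BIRC5 (-0.73 with DHT) and AURKB (-0.78 with EtOH and -0.65 with DHT) were among them. The control EtOH libraries of AURKB stood apart, at 611.9 and 865.4 normalized counts.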

How the data were processed

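Poly(A) RNA of 12 LNCaP cultures was sequenced, 2 biological replicates in each of 6 groups. The values are raw read counts per Ensembl gene as deposited by the authors, made with TopHat2 2.0.11 on GRCh37 and HTSeq 0.5.3p3 per the labels, after CASAVA 1.7. The strand setting was not given in the sources used here. HTSeq drops reads that map to several places or overlap several genes. The 5 closing tallies of each file were left out of library sizes. Genes with under 10 counts in all were removed, which kept 26156 genes. DESeq2 1.42.0 (R 4.3.3), the tool the study's methods name, was fitted here to all 12 samples with a coefficient per group, and Wald tests gave unshrunken log2 fold changes with 95% intervals. A gene passed at an adjusted p of at most 0.05 and a fold of at least 1.5. The script was tested on simulated data. Symbols and merged exon lengths came from GENCODE on GRCh37, and promoter windows from RefSeq. An exact permutation test of 2 against 2 cannot reach 0.05, so p-values come from the model. They set each difference against the spread between replicates that the model estimates from these samples. For KO against control they do not cover variation between clones.

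The members and all gene lists were chosen with earlier results of these data known. The genes named outside the members are BAG1, up to 2 largest rises and falls per list among genes that passed and averaged 100 or more normalized counts, the 5 genes most correlated with MYC on log2(normalized count + 1), and genes within 2 Mb of MYC, except where the text says otherwise. Some genes these lists cover are not reported here. The replicate numbers were checked for pairing by correlating the replicate differences of 15 pairs of groups. The correlations ran from -0.41 to 0.69 and 8 were above 0, so the numbers were not taken to pair the samples. Replicates differed by more than sampling noise in all 6 groups (chi-square per degree of freedom 3.19 to 36.5). Floors and intervals on counts cover counting error only. Alternatives were edgeR 4.0.16 (quasi-likelihood, TMM), TMM size factors, size factors without chromosome 8, other count filters, a replicate block, the samples compared alone, no fold minimum, the longest transcript as gene length, and each replicate left out.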

Additional observations from a re-analysis of the deposited data

Results flagged for a closer look

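Among the genes of the lists, 5 differences between the lines in a response are given, and each was picked up because the interaction contrast of DESeq2 passed at an adjusted p of at most 0.05 and a fold of at least 1.5. No member of the network was among them. With DHT the response of TMPRSS2, an androgen-induced protease, was larger in KO by 1.39 (adjusted p = 4e-13). In FM against EtOH the response was larger in KO for TMPRSS2 by 1.41 (adjusted p = 1.34e-13), KLK3, prostate-specific antigen, by 0.77 (adjusted p = 0.00648), SLC1A5 by 0.72 (adjusted p = 0.00313) and the mitotic kinase gene AURKB by 0.94 (adjusted p = 0.00602). SLC1A5 and AURKB belong to the MYC target and proliferation lists. AURKB had 611.9 and 865.4 normalized counts in control EtOH, the pair that agreed least, and 429.5 and 432.9 in KO EtOH. The DHT and FM contrasts share the EtOH libraries, and causes were not tested.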

How the results depend on the processing

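Of the alternative values of single members, 1011 counted as unchanged, 20 turned sign, 18 gained a call and 7 lost it. The shares of MYC with the longest transcript as length were counted in, as unchanged within the SD of the group, and 3 of them moved. The count of members passed with DHT in control was 3 in place of 5 in the fit of the samples compared alone, and 3 to 5 with a library left out. With DHT in KO it was 5 in place of 2 with no fold minimum, and 1 to 2 with a library left out. KO against control gave 2 in place of 1 with EtOH and with DHT when no fold minimum was set, and 1 to 2 with a library left out with EtOH. In FM it gave 2 in place of 1, MYCL being added, with edgeR, with TMM size factors, with size factors without chromosome 8, with at least 10 counts in every sample, with the samples compared alone and with no fold minimum, and 1 to 2 with a library left out. The difference in FM response gave 0 to 1 with a library left out, MXD3 being the member. The replicate block gave 5, 2, 0, 1, 1, 1, 4, 2 and 0 members in the 9 comparisons, the counts of the fit without it, and changed no call. Correlations between the replicate differences of KO EtOH and KO DHT were -0.21, and crossing the numbers of KO DHT, chosen after seeing the data, also gave 2 members.

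The values whose direction turned lay between -0.26 and 0.10 in the fit of all samples. With DHT in control MAX was at -0.01 with edgeR, with TMM size factors and with at least 10 counts in every sample, and lay between -0.09 and 0.10 with a library left out. Leaving out a library put MXD3 between -0.46 and 0.40 and MNT between -0.08 and 0.21 with DHT in control, MXD1 between -0.11 and 0.24 with FM in control, and MXD3 between -0.63 and 0.23 for KO against control with EtOH. For KO against control with DHT it put MNT between -0.06 and 0.23 and MLX between -0.19 and 0.01. The difference between the lines with DHT then ranged from -0.01 to 0.20 for MYCL, from -0.58 to 0.27 for MXD3, from -0.09 to 0.16 for MXD4 and from -0.24 to 0.05 for MNT. With the longest transcript as length MYC held 42.8% of the summed level in control FM, 45.5% with EtOH in KO and 39.1% with DHT in KO. Causes were not tested. Each group had 2 libraries, which limits how small a difference can be called.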
